A study of Oryctolagus cuniculus with 2 samples.

Results

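The share of transcripts that came from the mitochondrial genome was described in 6542 nuclei of the rabbit retina. Every deposited nucleus carries this value, as a percent of its UMIs (unique molecular identifiers, which count captured transcripts), so all 6542 of 6542 nuclei entered. The number of mitochondrial UMIs of a nucleus was taken as its percent times its UMIs over 100, which gave a whole number in every nucleus within 1e-06. The sources used here do not give the list of mitochondrial genes behind the percent, so no gene is named, and whether nuclear genes of mitochondrial proteins were counted is not known. The wild-type group was 1 library, pooled from retinal nuclei of 3 rabbits of 10 months. The knockout group was 1 library pooled from 3 rabbits of the same age with a knockout of CLRN1, which encodes the membrane protein clarin-1. Each animal gave a punch of 5 mm from the visual streak, where retinal cells are densest, and the punches were frozen before nuclei were isolated. The sources used here give neither the knockout allele nor the strain, and the CLRN1 level was not analysed here, so it does not check the genotype labels. The labels say that nuclei were traced to animals by their variants, but the table used here names the library only.

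Mitochondria carry a small genome of their own, which encodes subunits of the respiratory chain and of ATP synthase. Its messenger RNAs are made and translated inside the mitochondrion, outside the nucleus, and carry poly(A) tails, so that a droplet method primed on poly(A) captures them. In a preparation of nuclei they therefore stand for RNA from the cytoplasm, attached to a nucleus or free in the droplet. In photoreceptors the mitochondria are packed into the inner segment, apart from the cell body, whereas retinal ganglion cells hold many in the soma and in the unmyelinated part of the axon. No cell type of the retina lacks mitochondria, so no cell type here serves as a blank.

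Of 6916018 UMIs in 3484 wild-type nuclei, 19882 were mitochondrial. Of 8233524 UMIs in 3058 knockout nuclei, 27832 were mitochondrial. The median nucleus had 1175.5 and 1552.5 UMIs. The libraries shared 5 cell barcodes. Each genotype is 1 library, so nothing was tested. Intervals in the text are exact (Clopper-Pearson) 95% binomial intervals that cover counting error only, and genotype, pool and library cannot be told apart. For shares of summed UMIs they are narrower than the spread between nuclei, because mitochondrial UMIs were crowded into few nuclei, so a difference is called beyond counting error only from shares of nuclei whose intervals lie apart.

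Mitochondrial transcripts were rare in the median nucleus and concentrated in a small part of the nuclei. The median percent was 0.114% in the wild-type and 0.115% in the knockout library, with upper quartiles of 0.297% and 0.309%. No mitochondrial UMI was found in 28.0% of wild-type nuclei (976 nuclei, 26.5 to 29.5%) and in 26.7% of knockout nuclei (818 nuclei, 25.2 to 28.4%). At the other end, 258 wild-type and 250 knockout nuclei lay above 1%, and these held 47.8% and 50.6% of the mitochondrial UMIs of their library. The 181 wild-type and 162 knockout nuclei with the most mitochondrial UMIs, 5.20% and 5.30% of the nuclei, held 50% of them. Above 5% lay 40 wild-type and 52 knockout nuclei, and above 10% lay 12 and 7. The highest values were 13.9% and 14.1%.

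**Figure D1:**
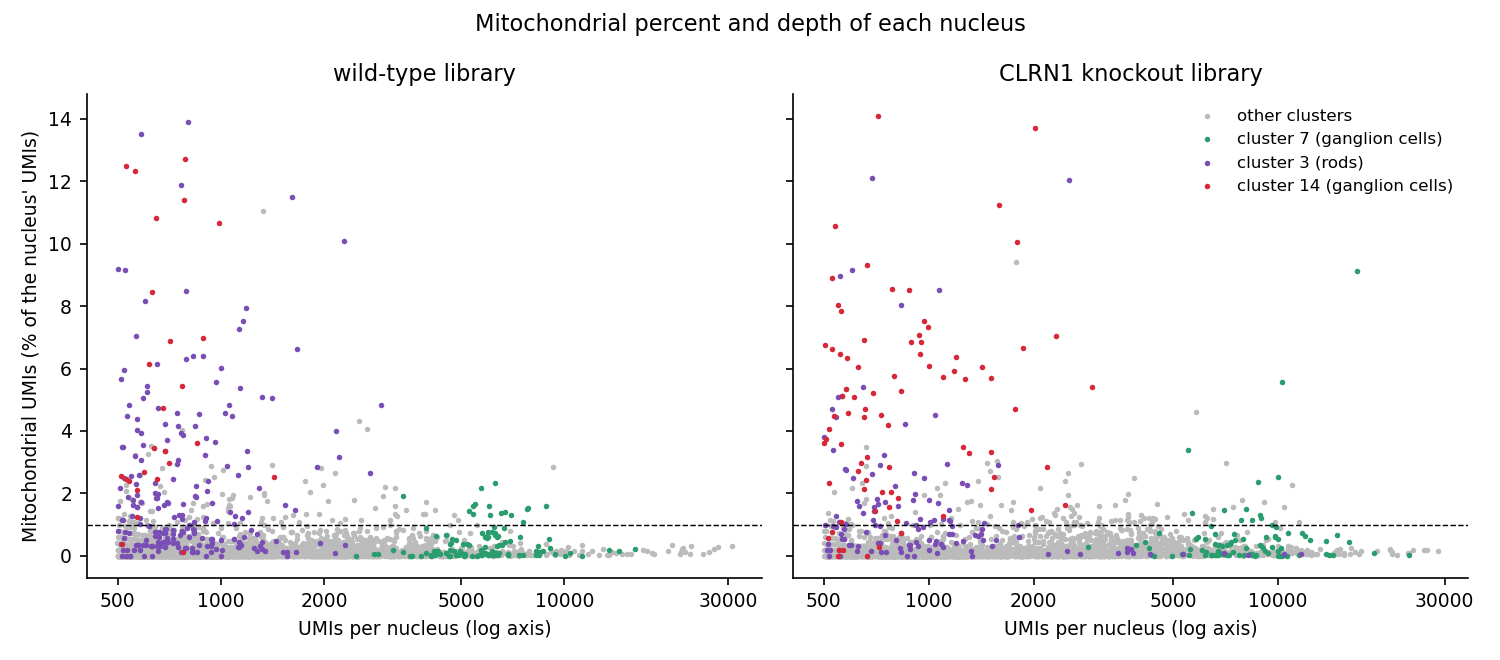
Mitochondrial percent of each nucleus (vertical axis, % of its UMIs) against its UMIs (horizontal log axis), with 3484 wild-type nuclei in the left panel and 3058 knockout nuclei in the right panel; the dashed line marks 1%. Nearly all nuclei above 5% belong to rod cluster 3 or ganglion cell cluster 14 and have few UMIs, and a knockout nucleus of ganglion cell cluster 7 with 16834 UMIs stands at 9.12%.

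Retinal ganglion cells, whose axons form the optic nerve, had the highest mitochondrial share of summed UMIs of the 7 annotated cell types in both libraries. Cones, the photoreceptors of bright light, had the lowest share of summed UMIs, which in the wild-type library was not apart from that of bipolar cells. Of the summed UMIs of ganglion cells, 0.524% (0.508 to 0.541%) were mitochondrial in wild-type nuclei and 1.04% (1.02 to 1.06%) in knockout nuclei. In cones these shares were 0.157% (0.143 to 0.172%) and 0.0951% (0.0852 to 0.106%). Horizontal cells, the lateral interneurons of the outer retina, came next after ganglion cells, at 0.289% (0.266 to 0.313%) and 0.384% (0.364 to 0.405%). Rods, the photoreceptors of dim light, followed in the wild-type library at 0.281% (0.275 to 0.286%), but stood second to last in the knockout library at 0.211% (0.206 to 0.215%). Amacrine cells, which are mostly inhibitory and act on bipolar and ganglion cells, were at 0.243% (0.235 to 0.251%) and 0.354% (0.345 to 0.364%). Müller glia, which span the retina, were at 0.217% (0.200 to 0.236%) and 0.295% (0.271 to 0.321%). Bipolar cells, which link photoreceptors to the inner retina, were at 0.181% (0.166 to 0.196%) and 0.379% (0.354 to 0.404%). The order by summed UMIs was the same in both libraries except that rods and bipolar cells changed places. In the wild-type library the intervals of horizontal cells and rods overlapped, as did those of amacrine cells and Müller glia and those of bipolar cells and cones. In the knockout library horizontal cells overlapped with bipolar cells, and bipolar with amacrine cells.

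The order by nuclei differed from the order by summed UMIs where a few nuclei carried the share. Müller glia had the lowest median of all types in both libraries, 0.0796% and 0.0534%, although bipolar cells and cones in the wild-type library, and rods and cones in the knockout library, had lower summed shares. In the knockout library the 3 of 54 Müller glia above 1% held 49.3% of the mitochondrial UMIs of that type, and a single nucleus held 29.3%. Cones had medians of 0.0891% and 0.0628%, and none of the 123 knockout cones lay above 1% (upper bound 2.95%), the highest being 0.599%. Ganglion cells had medians of 0.235% and 0.845%. No nucleus of cones, bipolar cells, horizontal cells, amacrine cells or Müller glia exceeded 5% in either library, so all 92 nuclei above 5% were labelled rods or ganglion cells.

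**Figure D2:**
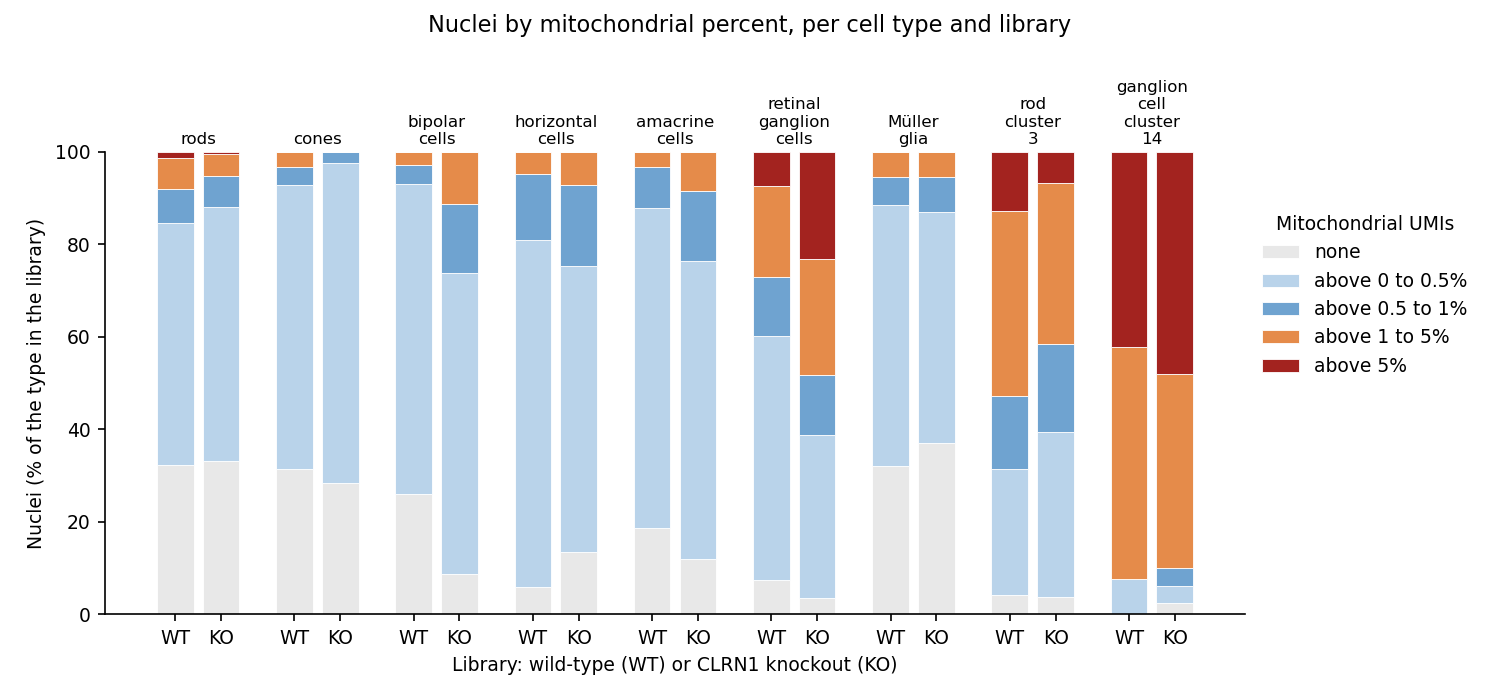
Shares of nuclei (vertical axis, % of the type in the library) in 5 classes of mitochondrial percent, for each cell type and, at the right, for rod cluster 3 and ganglion cell cluster 14, with wild-type (WT) and knockout (KO) bars side by side. Nuclei above 5% appear in rods and ganglion cells only, and cluster 14 has 90.7% of its nuclei above 1% over both libraries.

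Among the 26 clusters, 2 were set apart by the mitochondrial share. Ganglion cell cluster 14 had 5.51% (5.19 to 5.86%) mitochondrial UMIs among wild-type nuclei and 5.00% (4.85 to 5.16%) among knockout nuclei, and rod cluster 3 had 2.27% (2.21 to 2.34%) and 1.06% (1.01 to 1.11%). The other clusters ranged from 0.0968% in rod cluster 1 to 0.680% in rod cluster 16 over both libraries. Clusters 3 and 14 together held 459 nuclei, 7.02% of all nuclei and 3.06% of all UMIs, but 23.2% of all mitochondrial UMIs and 268 of the 508 nuclei above 1%. Of the 92 nuclei above 5% they held 87, and of the 19 above 10% they held 18. Whether mitochondrial genes entered the clustering is not known, so the separation is a description.

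In cluster 14 nearly every nucleus was rich in mitochondrial UMIs. Its lower quartile was 2.48% in the wild-type and 2.32% in the knockout library, its medians 3.54% and 4.71%, and its upper quartiles 8.07% and 6.64%. Above 1% lay 24 of 26 wild-type nuclei (74.9 to 99.1%) and 73 of 81 knockout nuclei (81.5 to 95.6%), with overlapping intervals. It was poor in UMIs, with medians of 647.5 and 736 UMIs per nucleus. The remaining ganglion cells, cluster 7, had medians of 5924 and 7830 UMIs, medians of 0.152% and 0.264% mitochondrial UMIs, and 13.1% (7.69 to 20.4%) and 12.6% (6.70 to 21.0%) of nuclei above 1%. The ganglion cell score of cluster 14, a score per nucleus deposited by the authors for a set of ganglion cell genes, had a median of 1.08 among its nuclei above 1%, against 0.82 among the nuclei above 1% of cluster 7. The rod score of the same nuclei was 0.62 in cluster 14 and −0.54 in cluster 7, and the Müller glia score was 0.45 and −0.10. Scores depend on depth, and these nuclei had medians of 716 and 6996.5 UMIs, so the scores were not compared at matched depth.

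Cluster 3 spread more widely around 1%. Its lower quartile was 0.410% in the wild-type and 0.308% in the knockout library, its medians 1.16% and 0.801%, and its upper quartiles 3.21% and 1.74%. Above 1% lay 116 of 220 wild-type nuclei (45.9 to 59.5%) and 55 of 132 knockout nuclei (33.2 to 50.6%). The nuclei of cluster 3 above 1% and those with 1 or more mitochondrial UMIs but up to 1% had similar rod scores, with medians of 1.32 and 1.42, and similar depth, with medians of 750 and 824 UMIs. The other clusters of the main rod population were far lower. Cluster 0 had 0.204% (0.193 to 0.215%) and 0.191% (0.178 to 0.205%), at medians of 666 and 659 UMIs close to those of cluster 3. Cluster 1 had 0.115% (0.107 to 0.124%) and 0.0852% (0.0793 to 0.0914%), the lowest of all clusters over both libraries. Cluster 2, with medians of 3190.5 and 4798 UMIs, had 0.137% (0.131 to 0.142%) and 0.150% (0.145 to 0.154%). Clusters 9 and 10 were deposited as rods but had low rod scores, with medians of 0.0078 and 0.17 in nuclei with 1 or more mitochondrial UMIs but up to 1%, against 1.35 in cluster 0. The mitochondrial share of cluster 9 was 0.393% and 0.396%, that of cluster 10 0.277% and 0.345%.

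Cluster 16, deposited as rods and nearly all from the knockout library, was divided within itself, and its rod scores were low too, with a median of −0.12 in nuclei above 1%. Among its 76 knockout nuclei, 14 lay above 1% (18.4%, 10.5 to 29.0%) and held 83.9% of its mitochondrial UMIs, while 21 had none and the median was 0.0889%. The 2 wild-type nuclei gave 0.0536% (0.00136 to 0.298%). Among amacrine clusters the share over both libraries ran from 0.160% in cluster 12 and 0.187% in cluster 17 to 0.408% in cluster 5 and 0.434% in cluster 21. In cluster 21, 8 of 63 nuclei lay above 1% and held 59.6% of its mitochondrial UMIs.

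**Figure D3:**
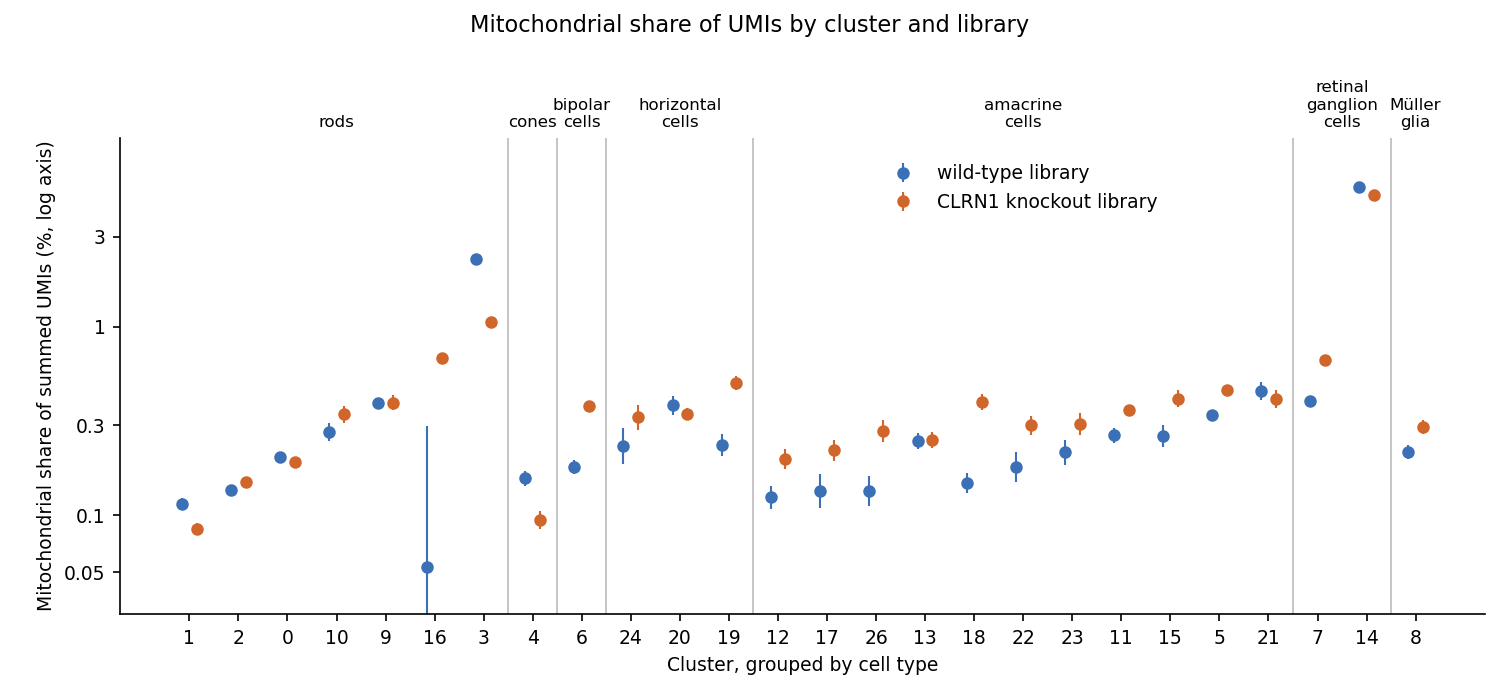
Mitochondrial share of summed UMIs (vertical log axis, %) of the 26 clusters, ordered by share within each cell type, with wild-type and knockout points and exact 95% intervals for counting error; the wild-type interval of cluster 16, which rests on 2 nuclei, runs below the axis. Clusters 14 (5.51% and 5.00%) and 3 (2.27% and 1.06%) stand above the rest, and the knockout point is the higher one in 10 of the 11 amacrine clusters.

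The dependence of the mitochondrial share on depth was described with and without clusters 3 and 14. Both were singled out by their high share in these same data and were shallow. Leaving them out therefore had to lower the share under 1000 UMIs, and is a description only. Over all nuclei the share fell with depth, from 0.502% of UMIs in wild-type nuclei under 1000 UMIs to 0.232% in those with 4000 or more, and from 0.515% to 0.309% in the knockout library. Without clusters 3 and 14 the direction turned, rising from 0.208% to 0.232% among wild-type nuclei and from 0.165% to 0.312% among knockout nuclei. The bins also differed in cell type, so these values mix type with depth. With all clusters, rods were 2297 of 2513 nuclei under 1000 UMIs but 437 of 971 with 4000 or more. In rods, cluster 3 included, the share fell from 0.422% to 0.124% in the wild-type and from 0.289% to 0.156% in the knockout library. Spearman's correlation of UMIs with the percent, over 3484 and 3058 nuclei whose percent has the UMIs as its denominator, was −0.05 in the wild-type and 0.09 in the knockout library. Over the nuclei outside clusters 3 and 14 it was 0.03 and 0.20. In ganglion cells it was −0.30 and −0.58, but 0.17 and 0.10 within cluster 7 and 0.31 and 0.15 within cluster 14, cluster 7 being deep and low and cluster 14 shallow and high. In cones the share was 0.406% in wild-type nuclei under 1000 UMIs and 0.0533% in those with 4000 or more, which were 38 and 8 nuclei, and 0.158% and 0.106% in the knockout library, where 9 and 26 nuclei stood in these bins. In amacrine cells it was 0.283% and 0.317% in the wild-type library and 0.127% and 0.408% in the knockout library, with 23 and 61 wild-type and 9 and 146 knockout nuclei.

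The share of nuclei with no mitochondrial UMI fell steeply with depth. None was found in 38.0% of wild-type and 41.7% of knockout nuclei under 1000 UMIs, and 8.71% and 3.74% of those with 4000 or more. To compare at matched depth, each nucleus was thinned to 500 UMIs, and the expected share with none left was computed exactly, leaving out 1 shallower wild-type nucleus. The shares were then 50.9% in the wild-type and 51.2% in the knockout library, against 28.0% and 26.7% before thinning. Thinned to 2000 UMIs, which left out 2369 wild-type and 1726 knockout nuclei, they were 24.9% and 19.5%. At matched depth the cell types still differed. With 2000 UMIs kept, no mitochondrial UMI was expected in 35.8% of wild-type and 39.8% of knockout Müller glia and in 36.2% and 35.5% of cones, but in 16.5% and 13.9% of horizontal cells.

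The design asked next how the knockout library differed from the wild-type library. Over all nuclei 7.41% of wild-type nuclei (6.56 to 8.33%) and 8.18% of knockout nuclei (7.23 to 9.20%) lay above 1%, with overlapping intervals. The cell types did not move together. By summed UMIs, amacrine, bipolar, horizontal and ganglion cells and Müller glia had the higher share in the knockout library, and cones and rods the lower, rods only with cluster 3 included. Among the 25 clusters with 10 or more nuclei of each library, 18 (72%) had the higher summed share in the knockout library. The intervals of the share above 1% lay apart in 0 of these clusters (0%), and those of the share with no mitochondrial UMI in 2 (8%).

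Among the types with several clusters, amacrine cells had the most even difference by summed share. The median percent was 0.107% in 560 wild-type and 0.193% in 469 knockout nuclei, and the share above 1% was 3.39% (2.05 to 5.25%) and 8.53% (6.16 to 11.4%), with intervals apart. The summed share was 1.46-fold higher in the knockout library. It was the higher one in 10 of the 11 amacrine clusters, against 72% of all 25 clusters and 8 of the 14 clusters of other types, with ratios of knockout to wild-type from 0.905 in cluster 21 to 2.69 in cluster 18. In clusters 13, 15 and 18 the medians went the other way. From wild-type to knockout they were 0.171% and 0.156%, 0.183% and 0.166%, and, in 47 and 24 nuclei of cluster 18, 0.0743% and 0.0542%. The share with no mitochondrial UMI was higher in the knockout library in clusters 12, 13 and 18, unthinned and with 2000 UMIs kept. With 500 UMIs kept it was lower in all 11 amacrine clusters. The clusters share the same pools and are not replicates. Over all amacrine nuclei, no mitochondrial UMI was found in 18.6% (15.4 to 22.0%) and 11.9% (9.15 to 15.2%), intervals that also lay apart. Knockout amacrine nuclei were deeper, with medians of 3217 against 2522.5 UMIs. At 2000 UMIs kept, the shares with none were 22.4% and 15.9%. Knockout nuclei had the higher mean mitochondrial percent in the 3 bins of 1000 or more UMIs, by 0.098 percentage points. The bin under 1000 UMIs, left out for its few nuclei, went the other way. Its means were 0.321% in 23 wild-type and 0.126% in 9 knockout nuclei. Above 0.5% lay 12.1% and 23.7% of amacrine nuclei, but above 2% lay 6 wild-type and 2 knockout nuclei, which turned the direction. Cluster 5, the largest amacrine cluster, was 1 of the 2 clusters whose shares with no mitochondrial UMI lay apart, at 21.1% of 128 wild-type and 4.20% of 119 knockout nuclei.

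Bipolar cells, a single cluster, had the largest ratio of any type, a 2.09-fold higher summed share in the knockout library. Their medians were 0.0847% in 142 wild-type and 0.213% in 80 knockout nuclei. The share with no mitochondrial UMI was 26.1% (19.1 to 34.1%) and 8.75% (3.59 to 17.2%), with intervals apart, and at 2000 UMIs kept it was 23.7% and 12.9%. Above 1% lay 4 wild-type (2.82%, 0.773 to 7.06%) and 9 knockout nuclei (11.3%, 5.28 to 20.3%), with overlapping intervals. The median depth was 1941 and 2725.5 UMIs, and knockout nuclei had the higher mean percent in 2 of 2 bins of UMIs, by 0.263 percentage points. Horizontal cells had medians of 0.126% and 0.202% and shares above 1% of 4.76% (1.31 to 11.7%) and 7.22% (2.95 to 14.3%), and at matched depth the direction of their share with no mitochondrial UMI changed with the number of UMIs kept. The 3 horizontal clusters did not share a direction, with 2 higher and 1 lower in the knockout library.

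**Figure D4:**
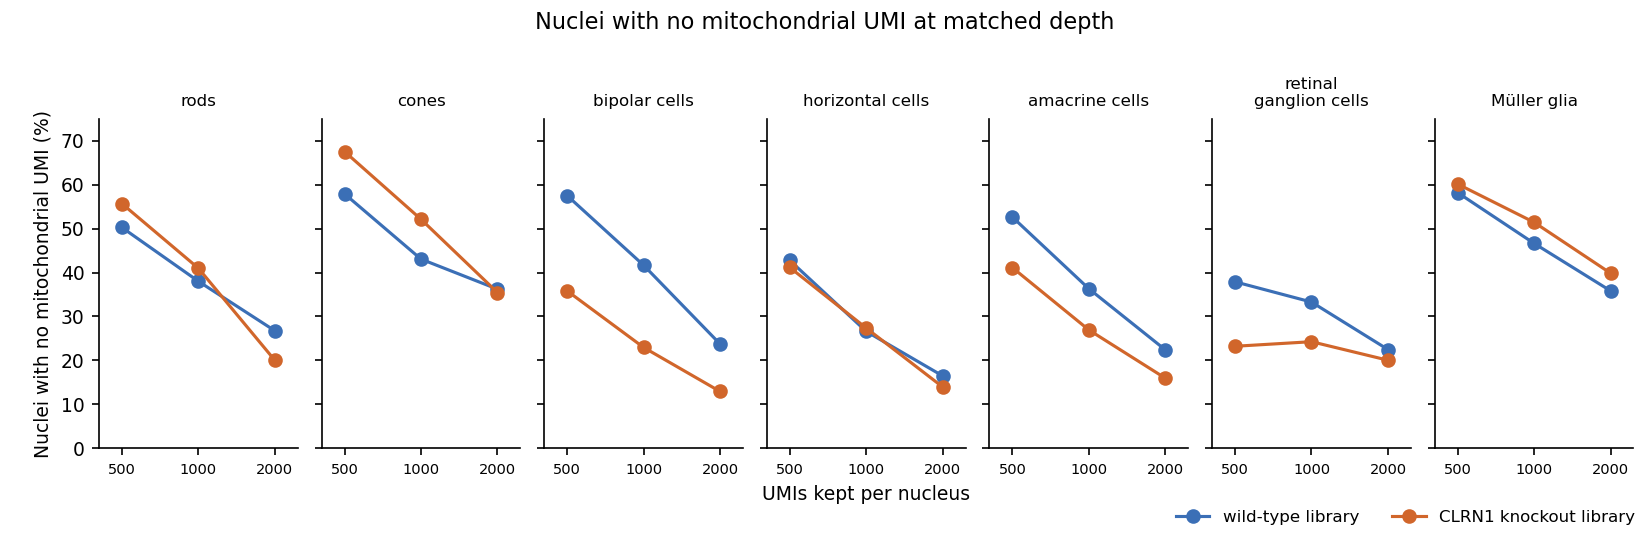
Expected share of nuclei with no mitochondrial UMI (vertical axis, %) when each nucleus is thinned to 500, 1000 or 2000 UMIs (horizontal axis), by cell type and library; shallower nuclei are left out at each step. The knockout line lies below the wild-type line at all 3 depths in bipolar, amacrine and ganglion cells and above it in Müller glia, and the lines cross in rods, cones and horizontal cells.

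Rods had fewer nuclei above 1% in the knockout library, 5.15% (4.23 to 6.19%) against 7.96% (6.87 to 9.16%), with intervals apart, but not without cluster 3. Knockout rods were deeper, with medians of 1067 against 869 UMIs, and the direction changed with depth. Under 1000 UMIs 6.03% of knockout and 9.18% of wild-type rods lay above 1%, but at 2000 to 4000 UMIs 6.06% and 5.24%. Thinned to 500 UMIs, the expected shares above 1% were 4.85% in knockout and 7.67% in wild-type rods, and thinned to 1000 UMIs 4.20% and 5.94%. Thinned to 2000 UMIs, which kept 583 of 2059 knockout and 380 of 2237 wild-type rods, they were 3.89% and 3.18%. Of the rods, 9.83% in the wild-type library were in cluster 3 and 6.41% in the knockout library, as were 65.2% and 51.9% of those above 1%. Without it the shares above 1% were 3.07% (2.36 to 3.92%) and 2.65% (1.98 to 3.47%), with overlapping intervals, and the summed shares were 0.168% (0.164 to 0.173%) and 0.176% (0.172 to 0.180%). Cluster 3 was both less frequent and lower in the knockout library, at 1.06% against 2.27% of summed UMIs. The median depth of its nuclei was 748.5 UMIs in the wild-type and 881.5 in the knockout library. Cones were lower in the knockout library by all 3 averages, with a 1.65-fold lower summed share, means of 0.200% and 0.0942% and medians of 0.0891% and 0.0628%. All 6 cones above 1% came from the wild-type library (3.30%, 1.22 to 7.04%, against 0 to 2.95% in knockout cones), with overlapping intervals. The wild-type library also held 38 of the 47 cones under 1000 UMIs. Within the 2 bins of 1000 to 4000 UMIs the mean percent was lower in knockout cones by 0.051 percentage points. At 2000 to 4000 UMIs the means were close, 0.0774% in wild-type and 0.0727% in knockout cones. The 2 outer bins, left out for few nuclei, differed in direction. Under 1000 UMIs the means were 0.385% and 0.157%, and at 4000 or more, in 8 wild-type and 26 knockout cones, 0.0576% and 0.101%.

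Ganglion cells had more nuclei above 1% in the knockout library, 48.3% (40.7 to 55.9%) against 27.0% (20.1 to 34.9%), with intervals apart. Without cluster 14 the shares were 12.6% in the knockout and 13.1% in the wild-type library. In cluster 14 were 17.6% of the wild-type and 46.0% of the knockout ganglion cells, and 60.0% and 85.9% of those above 1%. In cluster 7 alone the summed share was 0.402% (0.388 to 0.417%) and 0.666% (0.649 to 0.684%), but a single knockout nucleus with 1536 mitochondrial UMIs of 16834 held 28.5% of the cluster's mitochondrial UMIs in that library. Without this nucleus the knockout share was 0.486% (0.471 to 0.502%), and without the 5 nuclei of each library richest in mitochondrial UMIs the shares of cluster 7 were 0.332% and 0.348%. The same nucleus held 5.52% of all mitochondrial UMIs of the knockout library. Over all ganglion cells the knockout share was 0.886% without it in place of 1.04%.

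Müller glia, the cell type named in the study's title, showed no difference beyond counting error in the shares of nuclei. Above 1% lay 7 of 131 wild-type nuclei (5.34%, 2.18 to 10.7%) and 3 of 54 knockout nuclei (5.56%, 1.16 to 15.4%). With none were 32.1% (24.2 to 40.8%) and 37.0% (24.3 to 51.3%). The summed share was higher in the knockout library, whereas the mean over nuclei was 0.242% in the wild-type and 0.229% in the knockout library. Without the 5 nuclei with the most mitochondrial UMIs of each library the summed shares of Müller glia were 0.153% and 0.132%.

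Nuclei above 1% differed from other nuclei of their type in the authors' module scores in some types. The 10 Müller glia above 1% had median scores of 0.81 for Müller glia and 1.01 for rods, and 9 of the 10 had a rod score over 0.5. The 62 Müller glia with no mitochondrial UMI had medians of 1.53 and −0.06, and 13 of the 62 had a rod score over 0.5. The 113 with 1 or more mitochondrial UMIs but up to 1% lay between. They had medians of 1.24 and 0.28, and 45 of the 113 had a rod score over 0.5. The median depth was 1754 UMIs above 1%, 2165 up to 1% and 1801 with none. Amacrine cells above 1% had a median amacrine score of 0.50, at a median of 3045 UMIs. The score was 0.32 in those with none, at 2401.5 UMIs. In the 810 with 1 or more mitochondrial UMIs but up to 1% it was 0.38, at 2892 UMIs. Scores depend on depth and were made from the same UMIs, so these values are descriptions.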

How the data were processed

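Nuclei of 1 wild-type and 1 CLRN1 knockout library were analysed. Seurat 4.3.0 and Cell Ranger 7.0, with the build OryCun2.0, are listed without roles per the submitters' processing notes. The sources used here do not give the filters on nuclei, the handling of doublets and free RNA, or the mitochondrial gene list. UMIs and detected genes per nucleus are raw counts deposited by the authors. The mitochondrial value was deposited as a percent of a nucleus' UMIs, and module scores per cell type as a score without gene lists. The lowest depth was 499 UMIs and the highest percent 14.1%, so values above a limit near it may have been removed before deposit. Each nucleus carries its library's name, and cell types and clusters were taken as the authors gave them. No doublet caller was run. The count matrix, whose rows and columns carry numbers, was not used.

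Shares of summed UMIs and shares of nuclei were computed with exact binomial intervals (SciPy 1.17.1, pandas 2.3.3, Python 3.11.15). Thinning to 500, 1000 or 2000 UMIs used the hypergeometric expectation and was tested on simulated data. With 500 UMIs kept, nuclei held 1.96 mitochondrial UMIs on average, few for reading differences between types. These were read at 2000, where the nuclei deep enough held 5.52 on average. Cones held only 1.59 at 2000, so the same limit stays for them. Bins of UMIs were divided at 1000, 2000 and 4000, with 10 or more nuclei of each library, weighted by the smaller number. No gene was named. Clusters named were the 5 highest and 5 lowest by share, those whose intervals lay apart, and all of types whose clusters differed over 3-fold; others are named as exceptions. The members and comparisons were chosen with earlier results of these data known.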

Additional observations from a re-analysis of the deposited data

Results flagged for a closer look

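The share of nuclei above 1% mitochondrial UMIs differed in opposite directions between cell types, each beyond counting error: knockout minus wild-type it was −2.81 percentage points in rods, 5.14 in amacrine cells and 21.3 in ganglion cells. The difference between the types was not tested, since the design has 1 library per genotype. Without cluster 3 the difference in rods was −0.427 percentage points, of the same direction with overlapping intervals, and without cluster 14 that in ganglion cells turned to −0.483. Thinned to 500 UMIs, the difference in rods was −2.83 percentage points, and thinned to 1000 UMIs −1.74. Thinned to 2000 UMIs, which kept 380 wild-type and 583 knockout rods, the rods above 1% were 3.18% and 3.89%, the other direction.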

How the results depend on the processing

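Values are knockout minus wild-type in percentage points, and settings that leave out cluster 3, both clusters or the top nuclei, bin by UMIs or keep 2000 UMIs were chosen after seeing the data. The difference in summed share, 0.0506, was 0.0715 in nuclei of 1000 or more UMIs, 0.0285 as a mean over nuclei, 0.124 with equal weight to each type, 0.0204 without cluster 14, 0.0913 without cluster 3, 0.0605 without both and 0.0292 without the 5 nuclei richest in mitochondrial UMIs of each library. The share with no mitochondrial UMI, 0.230 with 500 UMIs kept, turned to −1.43 with 1000, −5.45 with 2000, −1.26 unthinned, −4.64 with equal weight and −0.973 without cluster 3. The share above 1%, 0.770, was −0.821 without cluster 14, 2.31 without cluster 3 and 4.49 with equal weight. The share under 1000 UMIs minus that at 4000 or more was 0.269 in the wild-type and 0.206 in the knockout library. With bins divided at 800, 1500 and 3000 UMIs it was 0.353 and 0.326. Without cluster 14 it was 0.185 and −0.0213, and without clusters 3 and 14 −0.0243 and −0.147. Leaving both out with bins divided at 800, 1500 and 3000 UMIs gave wild-type shares of 0.230% in the lowest and 0.228% in the highest bin. By type, reversed values were 0.00784 for the share of rods without cluster 3, −0.0789 for ganglion cells within bins, and −0.0124 as a mean and −0.0206 without the top nuclei for Müller glia. For no mitochondrial UMI they were −6.73 in rods with 2000 UMIs kept, −0.765 with 2000 and −2.86 unthinned in cones, and 0.759 with 1000 and 7.45 unthinned in horizontal cells. For the nuclei above the limit they were −0.483 in ganglion cells without cluster 14, −0.645 in amacrine cells above 2%, and −0.277 thinned to 500 UMIs and −3.05 above 2% in Müller glia. In rods thinned to 2000 UMIs, which kept 380 wild-type and 583 knockout rods, the share above 1% also reversed, at 3.18% and 3.89%. Thinned to 500 or 1000 UMIs it did not. Where a setting leaves out clusters or nuclei, that is what moved the value; elsewhere the cause was not tested. No paired analysis was possible because each genotype is 1 library, and for the same reason no library could be left out.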
